A study of Mus musculus with 4 samples.

Results

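Of 10 Sox genes chosen by symbol, 9 were analysed among the 11160 features of the deposited table. These were Sox2 and Sox3 (subfamily SoxB1), Sox21 (SoxB2), Sox4 and Sox11 (SoxC), Sox5 and Sox6 (SoxD), and Sox8 and Sox9 (SoxE). Sox12, a SoxC gene, was not analysed here. The libraries came from neural progenitors of the dorsal telencephalon of C57BL/6J mouse embryos at embryonic day 12.5, grown as neurospheres, which are floating clusters of dividing cells. There were 4 libraries of RNA depleted of ribosomal RNA, 2 of wild-type (WT) cells and 2 labelled as full knockout (KO) of Mcph1, the gene for microcephalin. Cultures of several embryos and then RNA samples were pooled within a genotype, so each replicate is a pool, and p-values measure the spread between pools. The comparison asks how each Sox gene differs when Mcph1 is inactivated.

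Sox proteins bind DNA through an HMG box, a domain related to that of the sex-determining factor SRY. In the developing cortex, SoxB1 factors keep cells as progenitors, and the SoxB2 factor Sox21 counteracts them and favours leaving the progenitor state. SoxC factors act in cells that have committed to becoming neurons and switch on neuronal genes. SoxD factors lack an activation domain of their own and work through partners, and SoxE factors maintain neural stem cells and direct glial fates.

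The genes differ to varying degrees in the coding sequence of the HMG box. Below are 63 bases from near the start of the box of each gene, taken from GENCODE M21 transcripts (mouse genome build GRCm38), with capitals for bases that differ from Sox2.
Sox2: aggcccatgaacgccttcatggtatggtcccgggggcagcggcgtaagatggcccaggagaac
Sox3: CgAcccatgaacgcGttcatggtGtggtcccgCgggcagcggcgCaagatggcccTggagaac
Sox21: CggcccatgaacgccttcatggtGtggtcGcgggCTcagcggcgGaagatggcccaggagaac
Sox4: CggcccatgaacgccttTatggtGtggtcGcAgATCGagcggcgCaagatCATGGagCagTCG
Sox11: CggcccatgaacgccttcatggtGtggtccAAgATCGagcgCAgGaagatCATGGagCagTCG
Sox5: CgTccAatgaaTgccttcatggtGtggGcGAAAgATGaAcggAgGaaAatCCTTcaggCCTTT
Sox6: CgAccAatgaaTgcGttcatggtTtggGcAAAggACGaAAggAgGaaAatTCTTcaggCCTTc
Sox8: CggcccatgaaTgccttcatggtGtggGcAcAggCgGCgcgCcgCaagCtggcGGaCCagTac
Sox9: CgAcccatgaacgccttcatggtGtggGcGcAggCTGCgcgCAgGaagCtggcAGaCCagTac
Sox3 and Sox21 differed from Sox2 at 7 and 6 of these bases, Sox8 at 17, Sox4 and Sox9 at 19 each, Sox11 at 20, and the SoxD genes at 26 each. In that annotation the genes lie on chromosomes 3 (Sox2), X (Sox3), 14 (Sox21), 13 (Sox4), 12 (Sox11), 6 (Sox5), 7 (Sox6), 17 (Sox8) and 11 (Sox9). The SoxB and SoxC genes have 1 exon each and the SoxE genes 3 each, while the Sox5 and Sox6 transcripts have 15 and 16. Over 210 bases of the box, the 4 pairs within a subfamily were 82.4% to 91.0% identical in bases, with Sox4 and Sox11 at 91.0%. The 32 pairs from different subfamilies ranged from 52.9% to 88.1%, and Sox21 was as close to Sox2 and to Sox3 (88.1% each) as these were to each other (87.6%). Reads were 75 bases long. Among 126 pairs of a member with another Sox transcript, the longest shared run was 48 bases (Sox4 with Sox11) and 0 pairs shared a 75-base window.

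Expression levels below are scaled CPM, meaning reads per 1000000 after the libraries were brought to a common scale. The reads recovered from the table came to between 5975471 and 22347416 per library, and the members held between 77 (Sox3 in KO 2) and 15620 (Sox4 in WT 2) of them. The targeted gene Mcph1 stood at 21.1 and 21.6 CPM in WT and 19.5 and 20.3 CPM in KO 1 and KO 2 (limma log2 fold change -0.10, SE 0.24, adjusted p = 0.922). Which part was deleted is not named in the labels, so this level over the whole gene does not check the knockout, and the second group is called KO-labelled. All 10 radial glia markers looked for were present. They summed to 13714 and 13975 CPM in WT and to 6978 and 9963 CPM in KO 1 and KO 2. Most of these sums came from 2 genes, Vim and Fabp7. Vim stood at 4757, 4911, 2208 and 4211 CPM in WT 1, WT 2, KO 1 and KO 2. Fabp7 stood at 5307, 5387, 2020 and 2263 CPM, so the lower sums largely reflect these 2 genes. Estimates were higher for 4 of the 10 and lower for 6. All 7 astrocyte markers, 9 of 10 oligodendrocyte lineage markers and 13 of 16 neuron markers were present too, and 0 of 6 microglial, 0 of 9 endothelial and 0 of 6 mesenchymal or pericyte markers were among the analysed features.

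Per kilobase of the longest coding transcript in GENCODE M21, Sox2 stood highest in every library, at 181 to 232 CPM per kilobase. Sox4 came next in WT, at 94.6 and 149 CPM per kilobase, above Sox11 at 43.4 and 78.8. Sox6, Sox8, Sox9, Sox21 and Sox3 lay far below these, between 6.65 and 18.3 CPM per kilobase in WT, and Sox5 was lowest at 1.90 and 2.19. Within that middle group only Sox6 stood apart from its neighbour in WT, since the ranges of Sox8 and Sox9, of Sox9 and Sox21 and of Sox21 and Sox3 overlapped. In KO 1 Sox11 passed Sox4 (145 against 109 CPM per kilobase), while in KO 2 Sox4 stayed above Sox11 (69.7 against 34.4). In KO 2 Sox8 and Sox9, at 20.7 and 16.4 CPM per kilobase, stood above Sox6 at 12.7. The gene models used by the authors were not given in the sources used here, and levels per kilobase are therefore approximate.

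**Figure D1:**
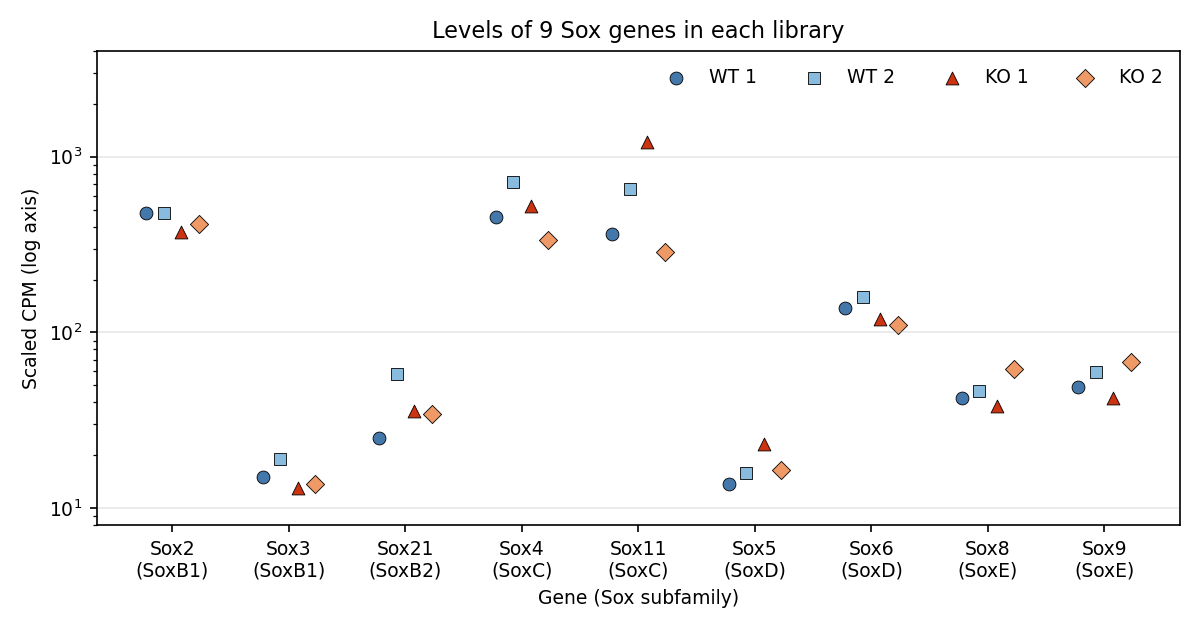
Level of each of the 9 Sox genes in each library, in scaled CPM on a log axis, with 1 point per library. Sox2, Sox3 and Sox6 lie lower in both KO-labelled libraries than in both WT libraries, and Sox11 in KO 1 (1204 CPM) lies above all other points.

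None of the 9 Sox genes passed the test between genotypes. In limma, fitted across 10976 features, their adjusted p lay between 0.694 (Sox6) and 0.994 (Sox9), and 0 of the 9 had an unadjusted p under 0.05. Over all features 0 were called (0%), with 832 at an unadjusted p under 0.05 (7.58%). The edgeR quasi-likelihood test and limma-voom on recovered reads also called 0, the edgeR exact test 20 and DESeq2 21, with no Sox member among them. Estimates were lower for 6 members (48.6% of all features were lower) and higher for 3, with a median log2 fold change of -0.13 against 0.012 over all features. On the values as deposited, where the median over all features was -1.25, all 9 were lower. Both KO-labelled libraries lay outside the WT range for 4 of the 9 members, 3 below and 1 above, where 41.1% of all features did so (20% below and 21.1% above). The share of members is near that background.

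**Figure D2:**
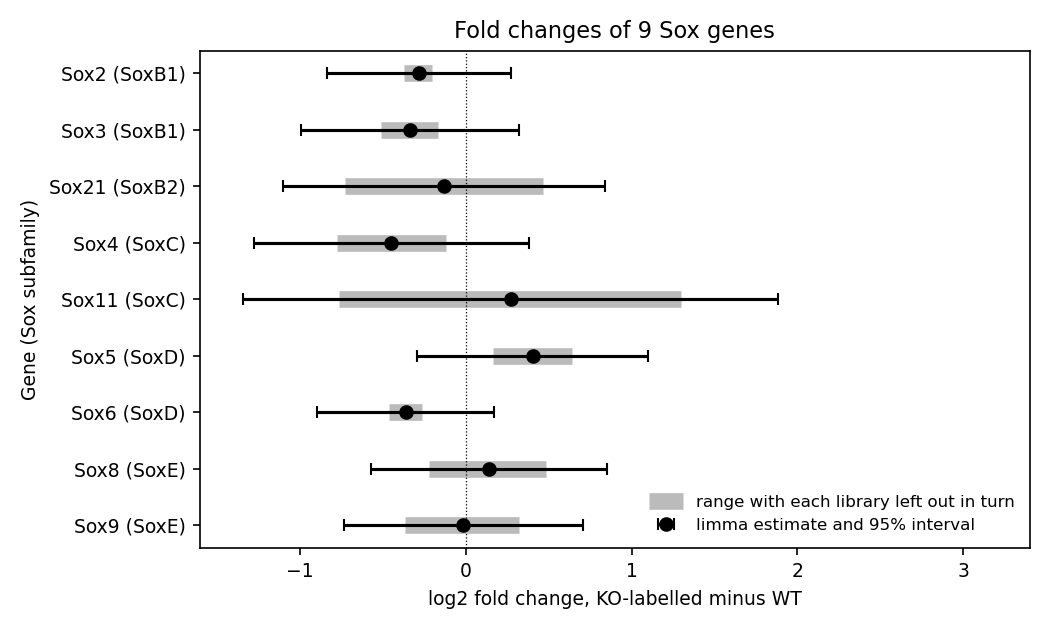
Log2 fold change (KO-labelled minus WT) of each Sox gene with its 95% interval from limma (points and bars), and the range of estimates when each library is left out in turn (grey). All 9 intervals include 0, and Sox11 has the widest, from -1.34 to 1.88; on the values as deposited the estimates of Sox5, Sox8 and Sox11 change sign.

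Sox2, the SoxB1 factor that maintains the progenitor state, had 477 and 478 CPM in WT against 372 and 415 CPM in KO 1 and KO 2. The WT libraries were nearly equal and both KO-labelled libraries lay below them. The means were 477 ± 1.10 and 393 ± 30.1 CPM (SD, n = 2 each), and the limma estimate was -0.28 (SE 0.23, 95% interval -0.83 to 0.27, adjusted p = 0.752). Sox3, its X-linked relative, stood at 14.99 and 19.06 CPM in WT and 13.1 and 13.7 CPM in KO 1 and KO 2 (limma estimate -0.34, SE 0.27, adjusted p = 0.751). The groups did not overlap for Sox3 either, and its estimate was -0.16 without WT 2 and -0.51 without WT 1. Reads of Sox3 came to 0.0315 and 0.0399 of those of Sox2 in WT and to 0.0352 and 0.0330 in KO 1 and KO 2, so the ratio within the subfamily overlapped between genotypes.

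Sox2 is a gene of 1 exon on chromosome 3 (positions 34650405 to 34652461, plus strand, GRCm38) that lies within Sox2ot, a long noncoding RNA gene on the same strand (34104270 to 34682619). Their exons share 0 bases in GENCODE M21, but the authors' counting rule is not given, so reads of the pair may not be fully separated. Sox2ot stood at 13.05 and 14.22 CPM in WT and 19.4 and 22.8 CPM in KO 1 and KO 2 (limma log2 fold change 0.62, SE 0.26, adjusted p = 0.656). On the common scale it thus lay above the WT range in both libraries where Sox2 lay below it. Within a library, where no scaling enters, Sox2ot had 0.0274 and 0.0297 reads per Sox2 read in WT and 0.0521 and 0.0549 in KO 1 and KO 2. The ratio was 1.87-fold higher in the KO-labelled libraries, and the groups were further apart than the libraries within either group. An exact two-sided permutation test over the 4 libraries gave p = 0.333, the smallest that this design allows. It was 1 after Benjamini-Hochberg adjustment over the 9 ratios computed.

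Sox21, the SoxB2 factor, varied most between the WT libraries, at 25.3 CPM in WT 1 and 58.1 CPM in WT 2. KO 1 and KO 2 lay between them, at 35.7 and 34.3 CPM, so the groups overlapped. The WT 2 value was 2.298-fold that of WT 1, and Sox21 was the only member to differ over 2-fold between WT libraries, as 4.75% of features did (1.65% were higher in WT 2). Between genotypes limma gave -0.13 on the log2 scale (SE 0.40, 95% interval -1.10 to 0.84, adjusted p = 0.942), and without WT 2 it was 0.47.

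Of the SoxC pair, Sox11 set KO 1 apart. Sox11 stood at 361 and 655 CPM in WT 1 and WT 2, at 1204 CPM in KO 1 and at 286 CPM in KO 2. The KO-labelled libraries thus held both the highest and the lowest value. Their ratio was 4.21, and 0.765% of tested features had a larger excess of KO 1 over KO 2. Sox11 was the only member with more than a 2-fold difference between them, as 9.99% of features had (5.17% were higher in KO 1). Between genotypes limma gave 0.27 on the log2 scale (SE 0.67, 95% interval -1.34 to 1.88, adjusted p = 0.925). It was -0.77 without KO 1, 1.30 without KO 2, -0.16 without WT 1 and -1.0 on the values as deposited.

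Sox4, which acts beside Sox11 in young neurons, stood at 454 and 714 CPM in WT against 522 and 334 CPM in KO 1 and KO 2. The groups overlapped, and WT 2 lay highest. Its estimate by limma was -0.45 on the log2 scale (SE 0.34, 95% interval -1.27 to 0.38, adjusted p = 0.740), and was -0.14 without KO 2, -0.12 without WT 2 and -0.77 without either KO 1 or WT 1. Within a library, Sox11 had 0.795 and 0.917 reads per Sox4 read in WT 1 and WT 2 and 0.855 in KO 2, but 2.31 in KO 1 (exact 95% binomial interval 2.24 to 2.38, for counting error only). The balance of the pair in KO 2 was thus within the WT range, and the SoxC ratio of KO 1 stood apart from the other 3 libraries. Together the pair took 51.8% and 62.1% of the Sox reads in WT, 72.8% in KO 1 and 46.3% in KO 2.

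**Figure D3:**
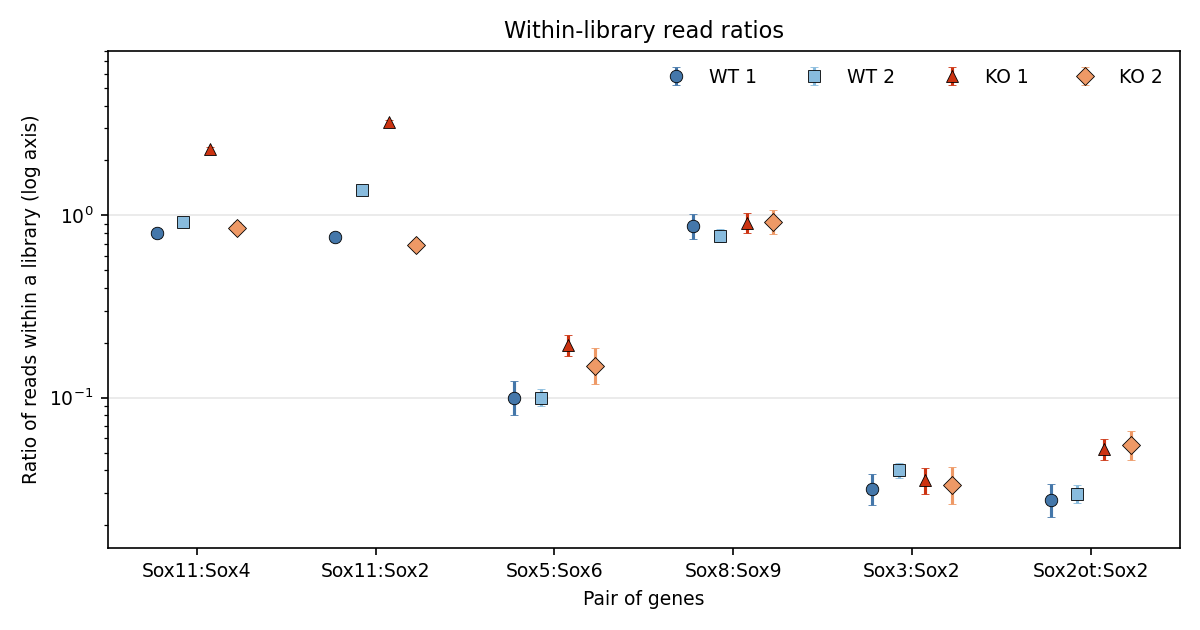
Reads of 1 gene per read of another within each library, on a log axis; bars are exact 95% binomial intervals, which cover counting error only. Sox11:Sox4 is 2.31 in KO 1 and 0.795 to 0.917 in the other libraries, while Sox5:Sox6 and Sox2ot:Sox2 are higher in both KO-labelled libraries than in both WT libraries.

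Because Sox4 and Sox11 belong to 1 subfamily but stood apart from each other in KO 1, the 250 bases before their RefSeq transcription starts are shown (GRCm38.p6, both on the minus strand). Sox4 is at chr13:28953700-28953949 and Sox11 at chr12:27342719-27342968. Capitals mark CCAAT, the NF-Y box, and CANNTG, the E-box of bHLH factors, each searched on both strands with no overlap between motifs.
Sox4: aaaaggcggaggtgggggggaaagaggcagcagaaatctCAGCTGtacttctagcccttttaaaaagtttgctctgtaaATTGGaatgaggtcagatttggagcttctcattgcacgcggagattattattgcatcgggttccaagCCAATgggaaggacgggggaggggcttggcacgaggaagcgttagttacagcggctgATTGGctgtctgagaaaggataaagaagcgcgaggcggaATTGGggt
Sox11: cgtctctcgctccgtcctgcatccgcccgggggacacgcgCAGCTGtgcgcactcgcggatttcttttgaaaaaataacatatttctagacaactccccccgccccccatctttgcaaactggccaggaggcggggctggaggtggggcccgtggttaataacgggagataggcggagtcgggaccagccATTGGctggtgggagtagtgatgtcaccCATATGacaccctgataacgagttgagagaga
The Sox4 window held 4 CCAAT matches and 1 CANNTG match, and the Sox11 window 1 and 2. GGGCGG and TATAAA were searched on both strands as well and are not in capitals where found: GGGCGG had 0 matches in Sox4 and 2 in Sox11, and TATAAA 0 in each. Of all 32851 promoter windows of this length, 33.9% held CCAAT, 66.2% CANNTG, 32.7% GGGCGG and 12.4% TATAAA at least once. These matches describe the letters only.

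Several neuronal genes were, like Sox11, highest in KO 1. Of 5 genes known as SoxC targets 4 were analysed, and 0 passed the test. Tubb3, a neuronal tubulin, stood at 73.2, 94.6, 373 and 38.9 CPM in WT 1, WT 2, KO 1 and KO 2, and Dcx, a microtubule-binding protein of migrating neurons, at 38.03, 37.03, 138 and 31.995 CPM. Mllt11 stood at 63.2, 72.7, 154 and 48.5 CPM, and Tead2, a transcription factor, at 60.4, 129, 114 and 71.6 CPM. The first 3 had their highest level in KO 1 and their lowest in KO 2, as Sox11 did. The 13 neuron markers, of which Tubb3 and Dcx are a part, summed to 984 and 1159 CPM in WT, 2202 CPM in KO 1 and 915 CPM in KO 2. Map2, which encodes a microtubule-associated protein of dendrites, made up 532, 612, 683 and 605 CPM of these sums. Of the 13, 13 were highest in KO 1 and 7 lowest in KO 2, while 4 stood above their WT mean in KO 2. The part of these cells in the Sox11 values was not tested. In pooled cultures, more cells of a type and more RNA per cell cannot be told apart.

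**Figure D4:**
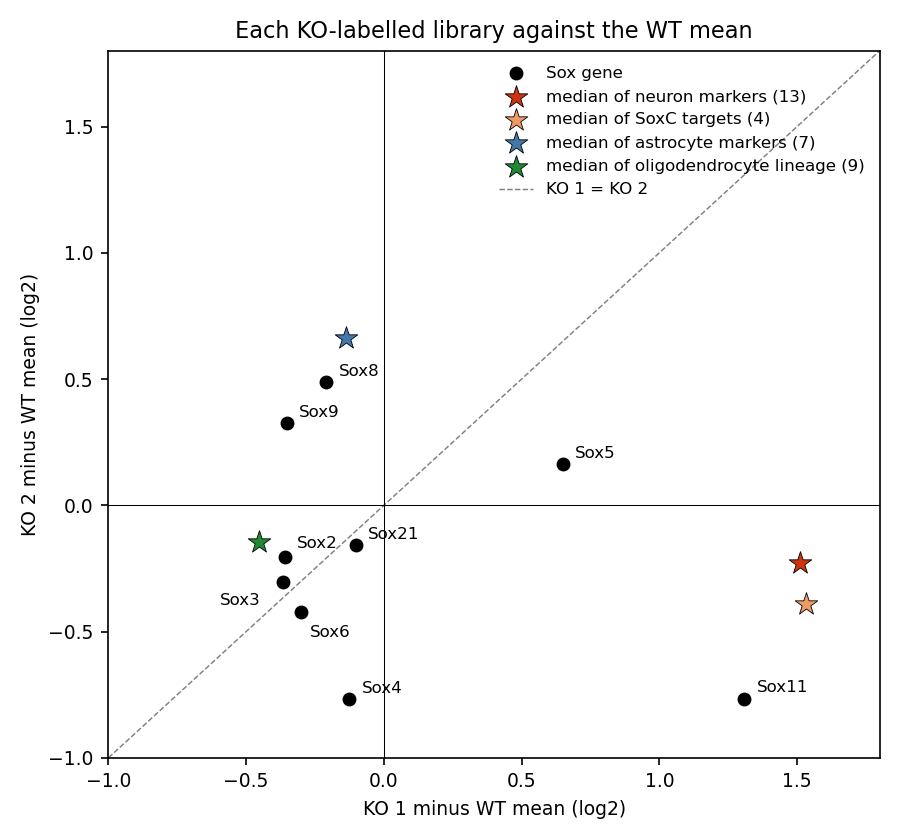
Log2 difference of KO 1 (x axis) and KO 2 (y axis) from the WT mean for the 9 Sox genes (black) and the medians of marker and target lists (stars); the dashed line marks equal differences. Sox11 lies beside neuron markers and SoxC targets at lower right. Sox8 and Sox9, and nearer the line Sox2 and Sox3, lie on its other side, where KO 2 is higher.

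The SoxD genes had estimates of opposite sign on the common scale. Sox5, which times the making of deep-layer cortical neurons, stood at 13.7 and 15.9 CPM in WT and 23.2 and 16.5 CPM in KO 1 and KO 2. Both KO-labelled libraries lay above WT after scaling, KO 2 only narrowly (limma log2 fold change 0.41, SE 0.29, adjusted p = 0.721). The Sox5 estimate was 0.16 without KO 1, 0.64 without KO 2 and -0.86 on the values as deposited. Sox6, which is found in dorsal progenitors and in interneurons that come from the ventral forebrain, stood at 138 and 158 CPM in WT and 120 and 110 CPM in the KO-labelled libraries. The groups did not overlap, and Sox6 had the smallest p of the 9 (limma estimate -0.36, SE 0.22, 95% interval -0.89 to 0.17, adjusted p = 0.694). Sox5 had 0.0999 and 0.1002 reads per Sox6 read in WT and 0.193 and 0.15 in KO 1 and KO 2. This ratio, which no scaling can alter, was 1.70-fold higher in the KO-labelled libraries. The exact permutation test again gave its smallest possible p of 0.333 (adjusted p = 1 over the 9 ratios).

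The SoxE genes varied alike across the libraries, with KO 1 and KO 2 in the opposite order to Sox11. Sox8 stood at 42.5 and 46.3 CPM in WT, 38.3 CPM in KO 1 and 62.2 CPM in KO 2. Sox9, which maintains neural stem cells and starts gliogenesis, stood at 48.9 and 59.8 CPM in WT, 42.3 CPM in KO 1 and 67.7 CPM in KO 2. For both genes KO 1 was lowest and KO 2 highest, with KO 1 at 0.616-fold and 0.625-fold the level of KO 2. Among tested features, 89.7% had a higher ratio of KO 1 to KO 2 than Sox8, and 89.2% a higher one than Sox9. The log2 fold changes between genotypes were 0.14 for Sox8 (SE 0.29, adjusted p = 0.909 by limma) and -0.01 for Sox9 (SE 0.30, adjusted p = 0.994 by limma). Both change sign with the library left out: Sox8 was -0.22 without KO 2, and Sox9 was 0.32 without KO 1, 0.13 without WT 2 and -0.36 without KO 2. On the values as deposited Sox8 was -1.13.

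Reads of Sox8 per Sox9 read were 0.869, 0.774, 0.906 and 0.919 in WT 1, WT 2, KO 1 and KO 2. Both KO-labelled ratios lay above WT, by 1.11-fold on average (exact permutation p = 0.333, adjusted p = 1 over the 9 ratios), and their counting intervals overlapped with those of both WT libraries. Sox10, the remaining SoxE gene and a marker of the oligodendrocyte lineage, was the only one analysed of 9 Sox genes outside the chosen 10. It stood at 26.5 and 26.2 CPM in WT, 19.2 CPM in KO 1 and 27.6 CPM in KO 2 (limma log2 fold change -0.19, SE 0.27, adjusted p = 0.855). It too was lowest in KO 1 and highest in KO 2. Glial markers also lay lower in KO 1 than in KO 2, by a median log2 difference of -0.35 for 7 astrocyte markers and -0.52 for 9 oligodendrocyte lineage markers, Sox10 among them. In WT 1, WT 2, KO 1 and KO 2 the astrocyte markers summed to 2364, 1049, 1417 and 2055 CPM. The oligodendrocyte lineage markers summed to 1287, 1414.5, 1002 and 1188 CPM. From WT 1 to WT 2 the astrocyte sum thus fell, while the oligodendrocyte lineage sum, Sox8 and Sox9 rose. The part of glial cells in the SoxE values was not tested. Sox8 overlaps 2810468N07Rik, a gene on the opposite strand, at 38.6 and 55.3 CPM in WT and 23.7 and 30.9 CPM in KO 1 and KO 2. The kit kept the strand, but whether counting used it is not given in the sources used here.

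Partners and other targets of Sox factors gave no call either. Of 6 SoxB1 partners 4 were analysed, 3 with higher and 1 with lower estimates. Chd7, a chromatin remodeller that binds Sox2, stood at 22.9 and 28.8 CPM in WT and 39.4 and 43.2 CPM in KO 1 and KO 2 (limma log2 fold change 0.68, SE 0.25, adjusted p = 0.655). Pax6, a dorsal progenitor factor, had a log2 fold change of 0.38 (SE 0.31, adjusted p = 0.749 by limma). Of 6 SoxB1 targets 5 were analysed, 2 higher and 3 lower. Nes, the nestin gene whose enhancer Sox2 binds, stood at 1153 and 1719 CPM in WT and 772 and 819 CPM in KO 1 and KO 2 (limma estimate -0.82, SE 0.30, adjusted p = 0.655). The groups did not overlap for Nes or Chd7, which are named for having the smallest p of their lists. In each of these 2 lists, 1 of the genes analysed had groups that did not overlap, as 41.1% of all features had.

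Hes5, a Notch effector on the SoxB1 target list, stood at 22.6, 48.9, 33.1 and 15.8 CPM in WT 1, WT 2, KO 1 and KO 2 (limma estimate -0.54, SE 0.49, adjusted p = 0.770). Of 13 SoxE and SoxD targets 6 were analysed, 2 higher and 4 lower. In both KO-labelled libraries 1 of the 6 lay above WT and 1 below, where 21.1% and 20% of all features did so. The 2 genes with the smallest p are named. Pdgfra, the receptor of oligodendrocyte precursors, stood at 183 and 194 CPM in WT and 68.4 and 110 CPM in KO 1 and KO 2 (limma estimate -1.12, SE 0.29, adjusted p = 0.655), so the groups did not overlap. Nfia, a gliogenic factor induced by Sox9, stood at 30.5 and 31.5 CPM in WT and 38.2 and 43.9 CPM in KO 1 and KO 2 (limma estimate 0.40, SE 0.23, adjusted p = 0.678). The medians of these lists were 0.32 for partners, -0.10 for SoxB1 targets, 0.44 for SoxC targets and -0.17 for SoxE and SoxD targets, against 0.012 over all features. Against the WT mean, the median of SoxC targets was 1.53 in KO 1 but -0.39 in KO 2. That of SoxE and SoxD targets was -0.60 and 0.20, of SoxB1 targets -0.13 and 0.22, and of partners 0.47 and 0.14. Only the partners thus had medians of 1 sign in both KO-labelled libraries.

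Transcript length moved with the fold changes across features (Spearman's rho 0.287, across genes, which are not independent replicates). The members' transcripts ran from 2057 bases (Sox2) to 8668 bases (Sox6), against a median of 3183 over tested features. After correction for length and GC content, the estimates became -0.21 for Sox2, -0.48 for Sox3, -0.35 for Sox21, -0.61 for Sox4, 0.085 for Sox11, 0.28 for Sox5, -0.55 for Sox6, 0.045 for Sox8 and -0.11 for Sox9, and 0 members were called.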

How the data were processed

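Per the labels' protocols, libraries were strand-specific and were sequenced together in 1 lane. Per the submitters' processing notes, STAR 2.3.0, DESeq 1.12.1, SAMtools 0.1.19, Picard 1.119 and FastQC 0.10.1 were used, with no role given. Build, annotation, counting rule and the table's filter were not given in the sources used here. The deposited values are a signal: the authors divided reads by 1 factor per library. All values were whole multiples of a step (100% within 0.01 of a step), so reads were recovered. The deposited totals differed 4.10-fold, so values were rescaled by TMM (edgeR 4.0.16). Features passing filterByExpr (minimum count 10) were fitted with limma 3.58.1 (R 4.3.3), with a mean-variance trend on log2(scaled value + 1). Fold changes on that log2(value + 1) scale understate changes of low genes. Tests were two-sided with Benjamini-Hochberg adjustment at 0.05, and the functions were tested on simulated data. All 9 members passed the filter. A level of 3 reads was 0.137 to 0.533 CPM, for counting error only. DESeq2 1.42.0, other tests, scalings, filters, pseudocounts, a replicate block, a length and GC correction (85.6% of features had values) and each library left out were alternatives. Beside the members, the text names Mcph1, genes overlapping a member, the 2 smallest p of each pathway list, and the remaining SoxC targets. It also names Map2, Vim and Fabp7 for their part in a marker sum. These marker genes and the remaining SoxC targets were added after their values were seen. Members and lists were chosen with earlier results of these data known.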

Additional observations from a re-analysis of the deposited data

How the results depend on the processing

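The 9 members were estimated under 17 alternatives: 141 estimates kept their direction, 12 reversed, and 0 gained a call. On the values as deposited the reversed estimates were -1.0 for Sox11, -0.86 for Sox5 and -1.13 for Sox8; that scale also moves the median of all features. Sox9, close to 0, turned to 0.011 in edgeR's quasi-likelihood test, 0.012 in its exact test and 0.0047 in DESeq2. Over the libraries left out in turn, Sox11 ran from -0.77 to 1.30, Sox21 from -0.73 to 0.47, Sox8 from -0.22 to 0.49 and Sox9 from -0.36 to 0.32; the cause was not tested. The count of features called was 0 under most alternatives, but 20 with the exact test, 21 with DESeq2 and 6 on the values as deposited, and ran from 0 to 178 over the libraries left out. It was 21 without KO 1 and 178 without KO 2, where the lone KO-labelled library is assumed to vary like WT. Same-numbered libraries deviated in opposite directions (correlation -0.303 of WT 1 with KO 1, across features). With 2 libraries per genotype, this cannot decide whether the numbers pair them. With the replicate number as a block 0 features were called and 476 had an unadjusted p under 0.05, against 832 without the block. With the crossed pairing, chosen after seeing the data, 0 were called and 1484 had such a p. The lowest read counts were those of Sox3, with 77 to 417 reads per library, and Sox5, with 93 to 347.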
